A study of Mus musculus with 24 samples.

Results

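Cultured mouse cortical neurons that received BDNF and the inhibitor IBET858 together for 12 h were compared with cultures that received only the solvent DMSO for 12 h. The comparison used the 3 arrays titled as BDNF with IBET858 at 12 h and the 3 control arrays at 12 h, 6 of the 24 arrays in the series, and covered all 18194 genes measured. All cultures were E18 primary cortical neurons kept for 1 week, with no genetic change named in the labels. BDNF was given at 50 ng per ml and IBET858 at 1 µM, and total RNA was hybridised as biotinylated cRNA to Affymetrix mouse arrays. The other groups used here were BDNF alone at 12 h, IBET858 alone at 12 h, and DMSO and both agents at 2 h, each with 3 arrays. The labels do not state that the 3 replicates of a group are separate cultures or animals. The p-values therefore rest on array-to-array spread, and that spread may be technical.

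BDNF is a neurotrophin that binds the receptor tyrosine kinase TrkB, encoded by Ntrk2. TrkB signals through the MAP kinase, PI3 kinase and phospholipase C pathways, and in neurons this switches on immediate early transcription factors, which then act on effector genes of synapses, axons and secretion. BET proteins such as Brd2 and Brd3 bind acetylated histones and help recruit P-TEFb, the kinase that releases paused RNA polymerase II. BET inhibitors displace these proteins from chromatin, and release of P-TEFb from its inhibitor Hexim1, with a later rise of Hexim1 mRNA, is a known response to them. Giving both agents asks what neurons express when a growth factor signal arrives while BET proteins are blocked.

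A majority of genes differed between the groups. By limma with Benjamini-Hochberg adjustment, 9645 of 18194 genes passed an adjusted p of 0.05 (53%), of which 4129 were higher with both agents (22.7% of all genes) and 5516 were lower (30.3%). Differences of at least 1.5-fold were seen for 1638 of the higher genes (9.0%) and 2524 of the lower genes (13.9%). Falls were more numerous and rises reached further. In all, 129 genes lay more than 2 log2 units above DMSO, 86 lay more than 2 below, and the range ran from -3.14 to 8.04. The median over all genes was -0.01 on the log2 scale. At 4972 genes all 3 treated arrays lay above all 3 DMSO arrays (27.3%), and at 6193 genes all lay below (34.0%).

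**Figure D1:**
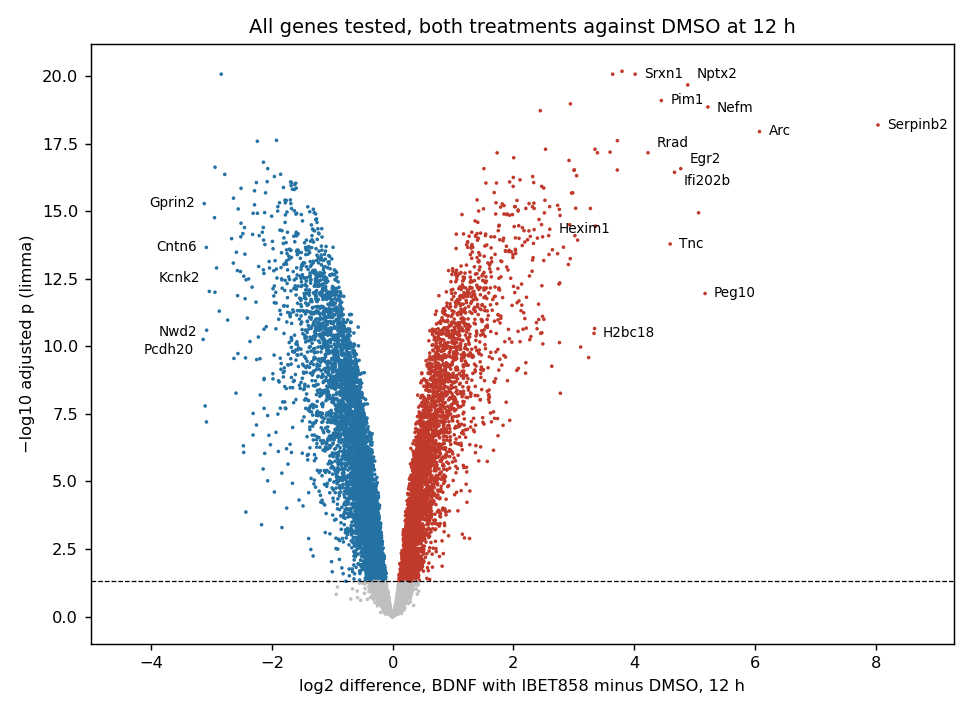
Each point is 1 of the 18194 genes, with the log2 difference between BDNF with IBET858 and DMSO at 12 h on the horizontal axis and the limma adjusted p, as -log10, on the vertical axis. Red points are genes called higher, blue points genes called lower, grey points not called, and the dashed line is an adjusted p of 0.05; rises reach 8.04 for Serpinb2 and falls reach -3.14 for Pcdh20.

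The deposited values had been centred on 0 for each probe set, so they carry no expression level, and the labelled cell type could not be checked by how strongly its markers were expressed. All values below are differences in log2 units. Within their groups the 6 arrays had a standard deviation around the group mean between 0.08 and 0.11 over all genes. Replicate 1 of DMSO at 12 h was the widest of them, at 0.106. Without that array, Olig2, Cspg4, Col1a2, Ntrk2 and Brd3 lost their calls. Both kinds of added control RNA read higher with both agents. Poly-A spikes are foreign RNA added before labelling in the standard protocol. The 27 probe sets grouped as poly-A spikes by name (dap, lys, phe, thr or trp) had a median of 0.71 log2 units above DMSO. Of these, 24 were called higher and none lower, and whether RNA was added for each of the 27 was not checked. Relative to the DMSO mean of each probe set, their median was 0.86, 0.65 and 0.61 on the arrays with both agents and -0.27, 0.20 and 0.10 on DMSO. It was 0.71, 1.03 and 1.12 with IBET858 alone, and 0.23, 0.13 and 0.07 with BDNF alone. The 18 hybridisation controls were 0.22 higher at the median. Of the 4129 genes called higher, 1311 exceeded the spike difference of 0.71. The part of this shift in the gene values was not tested. Outside the 6 arrays, replicate 1 of DMSO at 2 h was further from its group (standard deviation 0.178), as was replicate 3 of IBET858 at 12 h (0.157).

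The furthest rises were led by genes known from neuronal activity and growth factor responses. Serpinb2, a plasminogen activator inhibitor, stood at 8.11, 7.93 and 8.08 on the treated arrays against 0.05, -0.11 and 0.06 on DMSO, where each value is relative to the mean of the 3 DMSO arrays. It rose by 8.04 ± 0.17 (standard error of the model, n = 3 per group, limma adjusted p 6.4e-19), a 263-fold difference. The treated arrays were far above every DMSO array and lay within 0.2 log2 units of each other. Arc, a synaptic protein that governs the removal of AMPA receptors, was 6.11, 6.14 and 5.99 against 0.01, -0.09 and 0.07 and rose by 6.08 ± 0.14 (limma adjusted p 1.1e-18), or 67.5-fold. Nefm, the medium neurofilament subunit, read 5.25, 5.21 and 5.21 against -0.21, 0.02 and 0.19, a rise of 5.22 ± 0.10. No treated array of either gene came near a DMSO array. Nptx2, a secreted pentraxin that clusters AMPA receptors, had 4.93, 4.85 and 4.89 against -0.00096, -0.10 and 0.10 and rose by 4.89 ± 0.09.

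The other genes among the 15 furthest rises ranged from matrix and receptor genes to redox and cell cycle regulators. Peg10, an imprinted gene derived from a retrotransposon, rose by 5.17 ± 0.28, and Ifi202b, a member of an interferon-inducible family, by 4.67 ± 0.13. The extracellular matrix glycoprotein gene Tnc rose by 4.60 ± 0.19, with treated arrays at 4.78, 4.53 and 4.48 and DMSO at 0.36, -0.12 and -0.24. Pim1, a serine/threonine kinase induced by cytokines and growth factors, rose by 4.45 ± 0.08, and Rrad, a small GTPase that restrains calcium channels, by 4.23 ± 0.11. Srxn1, the antioxidant enzyme sulfiredoxin, rose by 4.02 ± 0.07, and its 4 probe sets ranged from 2.70 to 4.76. The TWEAK receptor gene Tnfrsf12a rose by 3.80 ± 0.06, the stress and DNA demethylation regulator Gadd45b by 3.72 ± 0.09, the Ras-like GTPase gene Rasl11a by 3.72 ± 0.10 and the transcriptional coregulator Sertad1 by 3.65 ± 0.06. All 15 had non-overlapping arrays, which the rule for naming them required.

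**Figure D2:**
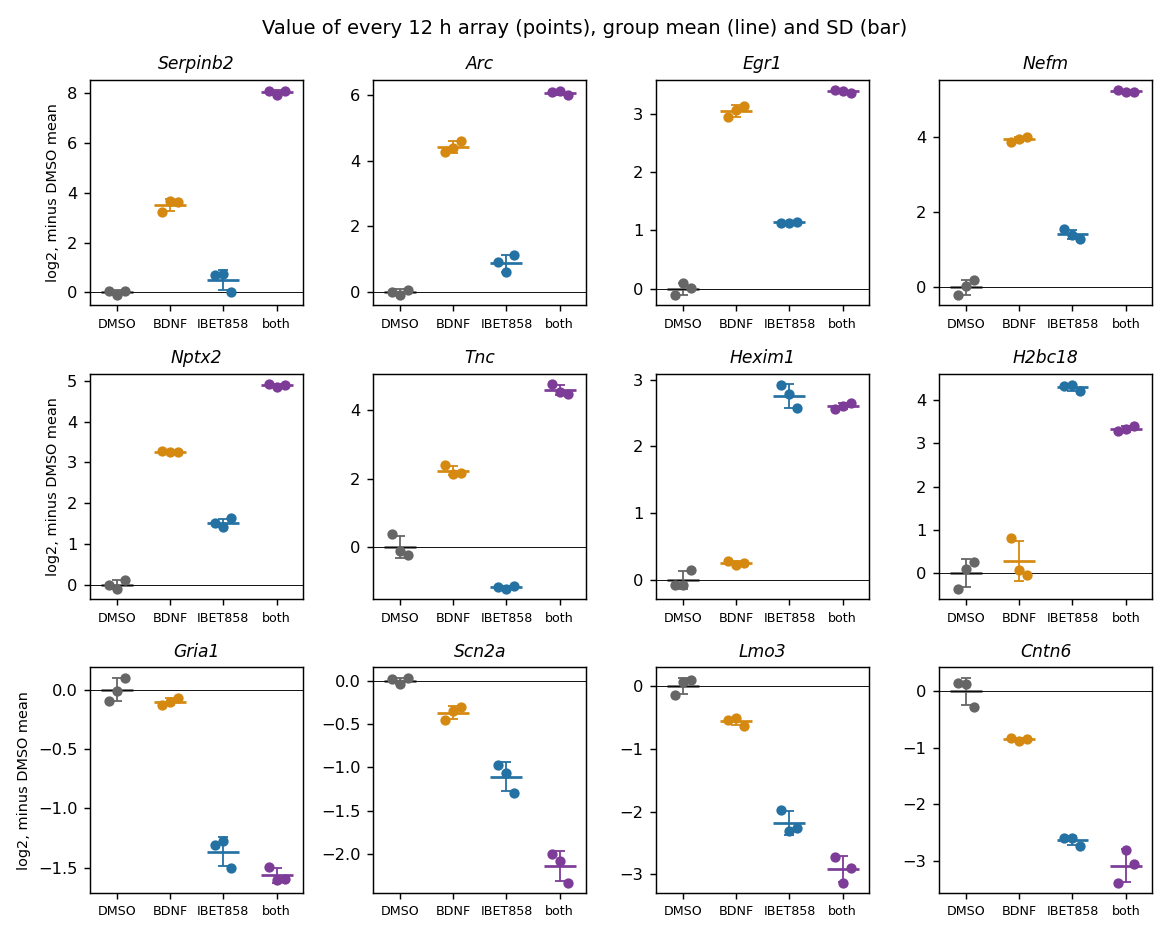
Values of 12 genes on every array taken at 12 h, in log2 units minus the DMSO mean, for DMSO, BDNF alone, IBET858 alone and both agents (n = 3 arrays per group). Points are arrays, lines group means and bars the SD; with both agents Serpinb2 lies between 7.93 and 8.11 while Cntn6 lies between -3.38 and -2.81.

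Transcription factors of the immediate early class were high almost throughout. Of 33 measured members, 28 rose, 1 fell and 4 were not called, with a median of 1.13, against 22.7% higher, 30.3% lower and a median of -0.01 over all genes. Counts of the lists that follow are set against the same shares of all genes. Egr2, a zinc finger factor, stood at 4.73, 4.84 and 4.75 on treated arrays and at -0.47, 0.23 and 0.25 on DMSO. It rose by 4.77 ± 0.13 (limma adjusted p 2.6e-17). DMSO replicate 1 was the lowest control array for this gene, yet all 3 controls were over 4 log2 units below the treated arrays. Egr1, its close relative, read 3.41, 3.40 and 3.37 against -0.11, 0.09 and 0.02 and rose by 3.39 ± 0.09. Klf4, a factor known from pluripotency and growth arrest, rose by 2.93 ± 0.11, Ier2 by 2.51 ± 0.09, the activity-dependent factor Npas4 by 1.75 ± 0.21, the stress factor Atf3 by 1.69 ± 0.15, and Fos, a subunit of AP-1, by 1.10 ± 0.07. Myc, a proliferation factor widely used as a readout of BET inhibition in tumour cells, rose by 0.63 ± 0.11 (limma adjusted p 3.3e-05). The 1 member that fell, chosen after its value was seen, was the orphan receptor gene Nr4a3, by 0.48 ± 0.15. The higher members not given here lay between 0.42 and 2.32.

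Promoter letters are shown for Egr2, the factor with the furthest rise, and Serpinb2, the gene with the furthest rise, because motifs of activity-dependent transcription can be read in them. RefSeq start sites of build GRCm38.p6 were available for 14453 of the genes, with 18110 promoters. The following are the 100 bases before the third listed start site of Egr2 (chr10:67537769-67537868, plus strand), where capitals mark a serum response CArG box, and before the first of Serpinb2 (chr1:107511323-107511422, plus strand), where capitals mark an AP-1 match (TGANTCA) and a TATA box (TATAAA).
Egr2: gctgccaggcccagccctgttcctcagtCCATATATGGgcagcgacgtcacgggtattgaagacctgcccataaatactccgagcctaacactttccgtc
Serpinb2: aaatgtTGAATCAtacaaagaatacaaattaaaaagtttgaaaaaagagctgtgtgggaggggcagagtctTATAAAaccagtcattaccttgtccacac
In the 250 bases before the start, on both strands, the CArG box was found in 2 of the 20 activity-induced transcription factor genes called higher that had a promoter, and in 1.43% of all genes. These were Egr2, with 4 of its listed starts, some of which share a site, and Srf, with 1. The EGR site GCGGGGGCG was found in 6 of their 29 promoters, each of a different gene (20.7%), and in 4.01% of all promoters. The cyclic AMP response element TGACGTCA was found in 3.71% of promoters of genes higher by over 1.5-fold and in 2.12% of all. Among genes higher by over 2 log2 units it was found in 1.72%, and in 1 of the 29 promoters above. The AP-1 motif TGANTCA was found in 4.56% past 1.5-fold and 6.9% past 2 log2 units, against 5.62% of all. A match is a description of the letters, and none of the capitalised matches overlapped another.

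Effector genes of activity formed the list with the highest median, 1.84, with 27 of 35 members higher and 2 lower. Beyond those above, Plat, tissue plasminogen activator, rose by 3.35 ± 0.08, Vgf, a secreted neuropeptide precursor known as a BDNF target, by 2.78 ± 0.26, and Cdkn1a, a cyclin-dependent kinase inhibitor, by 2.34 ± 0.07. Vgf read 2.76, 2.79 and 2.80 against -0.45, 0.29 and 0.16, so its treated arrays were close together and its DMSO arrays spread. Homer1, a postsynaptic scaffold gene with an activity-induced short form, rose by 1.94 ± 0.06, but its 6 probe sets ranged from 0.66 to 3.52. The antiproliferative gene Btg2 rose by 1.84 ± 0.14 and the prostaglandin synthase gene Ptgs2 by 0.93 ± 0.22. The 2 members that fell, chosen after their values were seen, were the chemokine receptor gene Cxcr4, by 0.79 ± 0.16, and Egfr, by 0.30 ± 0.06.

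Feedback inhibitors of the MAP kinase pathway followed the same direction. Of 22 measured, 14 rose and 4 fell, with a median of 0.96. The phosphatase genes Dusp5, Dusp4 and Dusp6, which inactivate ERK-type kinases, rose by 2.29 ± 0.16, 2.27 ± 0.16 and 2.15 ± 0.08, and Spry2, a Sprouty inhibitor of receptor tyrosine kinase signalling, by 1.88 ± 0.18. Treated arrays of Dusp6 stood at 2.21, 2.16 and 2.07 against -0.18, 0.11 and 0.07 on DMSO. The groups did not overlap for these 4 genes.

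Genes of the neurotrophin system itself were split. Of 13 measured ligands, receptors and adaptors, 5 rose and 3 fell, with a median of 0.14 that dropped to 0.01 without DMSO replicate 1. Bdnf read 0.08, 0.15 and 0.19 on treated arrays and -0.38, 0.16 and 0.22 on DMSO, and the groups overlapped. Its difference was 0.14 ± 0.26 (limma adjusted p 0.7), or -0.05 without DMSO replicate 1, below the 0.85 ± 0.26 seen with BDNF alone (limma adjusted p 0.012), a comparison tested below. Ntrk2, the TrkB receptor gene, read -0.18, -0.20 and -0.17 against 0.11, -0.09 and -0.02 and fell by 0.18 ± 0.06 (limma adjusted p 0.0078), with probe sets from -0.66 to 0.18 and a call lost when the median of its 8 probe sets was used or DMSO replicate 1 was left out. Among the sortilin-type sorting receptors, Sorcs3 rose by 1.59 ± 0.15 and Sorcs2 fell by 1.45 ± 0.13. Sorcs1 rose by 0.78 ± 0.10, with probe sets from -0.09 to 1.33. Grb2, an adaptor between receptor tyrosine kinases and Ras, rose by 0.89 ± 0.06, with probe sets at 0.25 and 1.53.

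Of 29 neuropeptide and dense-core vesicle genes, 9 rose and 11 fell, against 22.7% and 30.3% of all genes, so the counts lay near those of all genes. The neurotensin gene Nts rose by 3.25 ± 0.25 and the galanin gene Gal by 2.45 ± 0.17. Cadps2, needed for priming dense-core vesicles, fell by 2.17 ± 0.47, and Nxph1, a secreted ligand of neurexins, by 1.60 ± 0.15. The standard error of Cadps2 was large beside those of most named genes.

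Regulators of P-TEFb and the BET genes also changed. Hexim1 stood at 2.56, 2.60 and 2.65 on treated arrays and -0.08, -0.07 and 0.15 on DMSO and rose by 2.60 ± 0.10 (limma adjusted p 4.6e-15). Brd2 read 1.46, 1.46 and 1.45 against -0.12, 0.09 and 0.03 and rose by 1.46 ± 0.06. The treated arrays of both genes were clearly apart from the controls. Brd3 fell by 0.15 ± 0.05, a call that ended without DMSO replicate 1 (-0.12, limma adjusted p 0.069), and its 4 probe sets ranged from -0.47 to 0.05. Ell2, a subunit of elongation complexes, rose by 1.22 ± 0.07, with 1 probe set at -0.07 and the other at 2.52. Sertad1 was also a member of this list. Of its 23 measured genes, 12 rose and 5 fell, with a median of 0.17 that was 0.05 with each probe set tested alone.

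Histone genes had the second highest list median, below that of the effector genes. Only 14 of the 48 listed genes were measured, so the counts do not cover the family. Of these 14, 12 rose and 1 fell, with a median of 1.17. H2bc18, encoding a histone H2B, read 3.27, 3.33 and 3.41 against -0.36, 0.11 and 0.25 and rose by 3.34 ± 0.23 (limma adjusted p 3.3e-11). H3c4, a histone H3 gene, read 1.79, 1.97 and 1.95 against -0.24, 0.08 and 0.16 and rose by 1.90 ± 0.17. All treated arrays of both genes exceeded all controls. H3c7 rose by 2.08 ± 0.17 and H2ax, the histone variant that marks DNA breaks when phosphorylated, by 1.71 ± 0.06. Histone genes are near-identical copies, so signal may be shared among them on the array. The 100 bases before the start of both genes follow, H2bc18 at chr3:96269600-96269699 and H3c4 at chr13:23575663-23575762, both on the plus strand of GRCm38.p6, with CCAAT and TATAAA matches on either strand in capitals.
H2bc18: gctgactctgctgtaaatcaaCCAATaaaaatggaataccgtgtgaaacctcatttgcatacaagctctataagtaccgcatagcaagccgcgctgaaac
H3c4: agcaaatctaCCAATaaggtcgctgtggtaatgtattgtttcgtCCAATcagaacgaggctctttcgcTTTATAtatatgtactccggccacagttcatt
CCAAT occurred in 10 of 10 promoters of histone genes called higher and in 34.7% of all promoters, and TATAAA in 4 of 10 (40.0%) against 8.81%. With 12 of the 14 measured histone genes higher, these shares describe the gene family and cannot be tied to the rise.

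The 15 furthest falls covered genes of several roles. Pcdh20, a protocadherin, stood at -2.85, -3.36 and -3.20 on treated arrays and -0.16, 0.01 and 0.15 on DMSO and fell by 3.14 ± 0.22 (limma adjusted p 5.5e-11), or 8.8-fold. Gprin2, linked to G protein control of neurite growth, read -3.12, -3.11 and -3.14 against -0.08, -0.07 and 0.15 and fell by 3.12 ± 0.10. Both genes had every treated array below every control. Cntn6, a contactin adhesion molecule, read -3.38, -2.81 and -3.06 against 0.15, 0.12 and -0.27 and fell by 3.08 ± 0.13. Kcnk2, a background potassium channel, fell by 3.04 ± 0.16, Nxph2, a neurexophilin, by 2.94 ± 0.16, and Lmo3, a LIM-only transcription regulator of cortical neurons, by 2.92 ± 0.14. Lgi1, a secreted synaptic protein whose human gene is mutated in a familial epilepsy, fell by 2.67 ± 0.11, and Gucy1a1, a subunit of the nitric oxide receptor, by 2.78 ± 0.08. The lipid genes Osbpl1a, an oxysterol-binding protein, and Cyp4x1, a cytochrome P450, fell by 2.84 ± 0.05 and 2.94 ± 0.08. The remaining members of the 15 were Nwd2, Lrrc75b, Ccdc85a, Dleu7 and Ndrg1, which fell by between 2.64 and 3.08.

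Genes of glutamate and GABA transmission were more often lower than higher. Of 22 glutamate receptor genes, 12 fell and 3 rose, with a median of -0.28. Gria1, an AMPA receptor subunit, read -1.50, -1.60 and -1.59 against -0.09, -0.01 and 0.10 and fell by 1.56 ± 0.06 (limma adjusted p 6.8e-15). The metabotropic receptor genes Grm5 and Grm2 fell by 1.84 ± 0.09 and 1.73 ± 0.24, and the kainate receptor gene Grik1 by 1.47 ± 0.16. Among 16 genes of GABA synthesis, transport and reception, 11 fell and 2 rose, with a median of -0.51. Gabra5, an extrasynaptic GABA-A subunit, read -1.88, -2.0 and -2.02 against -0.15, 0.08 and 0.06 and fell by 1.97 ± 0.11. Gabrb1 and Gabrb2 fell by 1.92 ± 0.10 and 1.60 ± 0.06, although single probe sets of each reached only -0.11 and -0.29. Gad2, a GABA-synthesising enzyme, went the other way and rose by 1.47 ± 0.11.

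Voltage-gated channel genes had 32 of 52 members lower and 6 higher, with a median of -0.43. Scn2a, a main sodium channel of cortical excitatory neurons, read -2.0, -2.09 and -2.33 against 0.01, -0.04 and 0.03 and fell by 2.14 ± 0.10 (limma adjusted p 1.5e-13). Scn1a, a sodium channel prominent in interneurons, fell by 1.90 ± 0.07. Probe sets disagreed in size for both, from -2.90 to -0.55 for Scn2a and from -2.60 to -0.58 for Scn1a. The potassium channel genes Kcnh1 and Kcnc2 fell by 1.99 ± 0.08 and 1.85 ± 0.09.

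The machinery of the synapse was divided. On the presynaptic side 24 of 40 genes fell and 11 rose, with a median of -0.31. Doc2a, a calcium sensor of vesicle release, fell by 2.14 ± 0.09 and the vesicle glycoprotein gene Sv2b by 2.13 ± 0.14, with probe sets at -3.13 and -1.13. Sv2c, a close relative of Sv2b, rose by 1.75 ± 0.11, and Slc17a6, the vesicular glutamate transporter VGLUT2, by 1.34 ± 0.08. On the postsynaptic side 18 of 37 genes fell and 9 rose. Lrrtm4 and Slitrk1, adhesion molecules that organise synapses, fell by 2.07 ± 0.32 and 1.79 ± 0.16. The scaffold genes Dlgap2 and Homer1 rose by 2.42 ± 0.15 and 1.94 ± 0.06.

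Of 51 guidance genes 22 fell and 16 rose, against 30.3% and 22.7% of all genes, and their median was -0.10. Sema3a, a repellent semaphorin, its receptor gene Nrp1 and Sema7a fell by 2.33 ± 0.12, 2.02 ± 0.25 and 1.98 ± 0.17. Unc5b, a netrin receptor, rose by 2.34 ± 0.08. Of 62 very long neuronal genes 37 fell and 12 rose, with a median of -0.42, led by Cntn6. Tenm2, a teneurin adhesion protein, fell by 1.71 ± 0.12 and Zfpm2, a transcriptional cofactor, rose by 1.56 ± 0.09. Among 63 autism-associated genes, 26 fell and 22 rose (76.2% called, against 53% of all genes), with a median of -0.08. That list shares Scn2a and Scn1a with the channels, and it also held Met, a receptor tyrosine kinase, which fell by 1.96 ± 0.15 with probe sets at -3.61 and -0.32, and the homeobox gene En2, which rose by 1.44 ± 0.10.

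Structural genes had their own risers. Of 36 cytoskeleton, neurofilament and caveola genes, 16 rose and 12 fell. Nefl, the light neurofilament subunit, rose by 3.28 ± 0.11, the intermediate filament gene Vim by 2.47 ± 0.07, and Cavin2, a coat protein of caveolae, by 3.03 ± 0.10. The arrays of Vim read 2.48, 2.45 and 2.48 against 0.09, -0.04 and -0.05 and those of Cavin2 2.95, 2.97 and 3.17 against 0.0025, 0.02 and -0.02, with no overlap. Dcx, a microtubule protein of young neurons, fell by 0.96 ± 0.10. In the 42 matrix and protease genes, 13 rose and 10 fell (54.8% called, near the 53% of all genes). Besides Tnc and Plat, the protease inhibitor gene Timp1 rose by 1.37 ± 0.12, and the metalloprotease gene Adam12 fell by 1.48 ± 0.13.

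Many genes of energy and lipid metabolism fell. Respiratory chain subunits fell in 49 of 71 cases and rose in 3, with a median of -0.26. These falls were small for most genes, and 9 of the 71 fell by over 1.5-fold, against 13.9% of all genes. Ndufs1, a core subunit of complex I, read -1.23, -1.16 and -1.27 against -0.04, 0.05 and -0.01 and fell by 1.22 ± 0.05 (limma adjusted p 3e-14). Ndufb3 and Ndufs8, of the same complex, fell by 0.95 ± 0.05 and 0.84 ± 0.05, while Cox7c, a cytochrome oxidase subunit, rose by 0.84 ± 0.09. Of 30 genes of cholesterol and fatty acid synthesis, 21 fell and 2 rose, with a median of -0.30. Mvd, an enzyme of the mevalonate pathway, read -1.09, -1.14 and -1.25 against 0.22, -0.09 and -0.13 and fell by 1.16 ± 0.12. The sterol reductase gene Tm7sf2 fell by 1.44 ± 0.15, and Pmvk and Nsdhl, further enzymes of the route, by 1.04 ± 0.08 and 0.98 ± 0.11.

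Endoplasmic reticulum stress and heat shock genes were more often higher than lower. Of 39 genes of endoplasmic reticulum stress and the amino acid response, 23 rose and 6 fell, with a median of 0.28. Ddit3, the transcription factor CHOP, read 2.09, 2.20 and 2.12 against 0.03, -0.01 and -0.02 and rose by 2.14 ± 0.11. The lipoprotein receptor gene Vldlr and the gluconeogenic enzyme gene Pck2, listed there as targets of that response, fell by 1.60 ± 0.09 and 1.28 ± 0.09. Heat shock genes rose in 10 of 22 cases and fell in 1 (50% called). Hspa1b, an inducible HSP70, read 2.79, 2.82 and 2.88 against -0.24, 0.12 and 0.12 and rose by 2.83 ± 0.12. Its near-identical copy Hspa1a rose by 1.91 ± 0.09, with which it may share signal, Hspa2 by 1.49 ± 0.16 and the heat shock factor gene Hsf2 by 1.63 ± 0.12. Of 23 p53 target genes, 8 rose and 8 fell (69.6% called), with Cdkn1a, Btg2 and the fructose-bisphosphatase Tigar (1.19 ± 0.09) higher, while the cell death gene Bbc3 fell by 1.27 ± 0.08. Of 36 NF-kappaB and inflammatory genes, 10 rose, 5 fell and 21 were not called, so 41.7% were called, fewer than the 53% of all genes. The chemokine gene Cxcl2 rose by 1.60 ± 0.15, the inhibitor gene Nfkbie by 1.17 ± 0.10 and the subunit gene Rel by 0.96 ± 0.11.

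**Figure D3:**
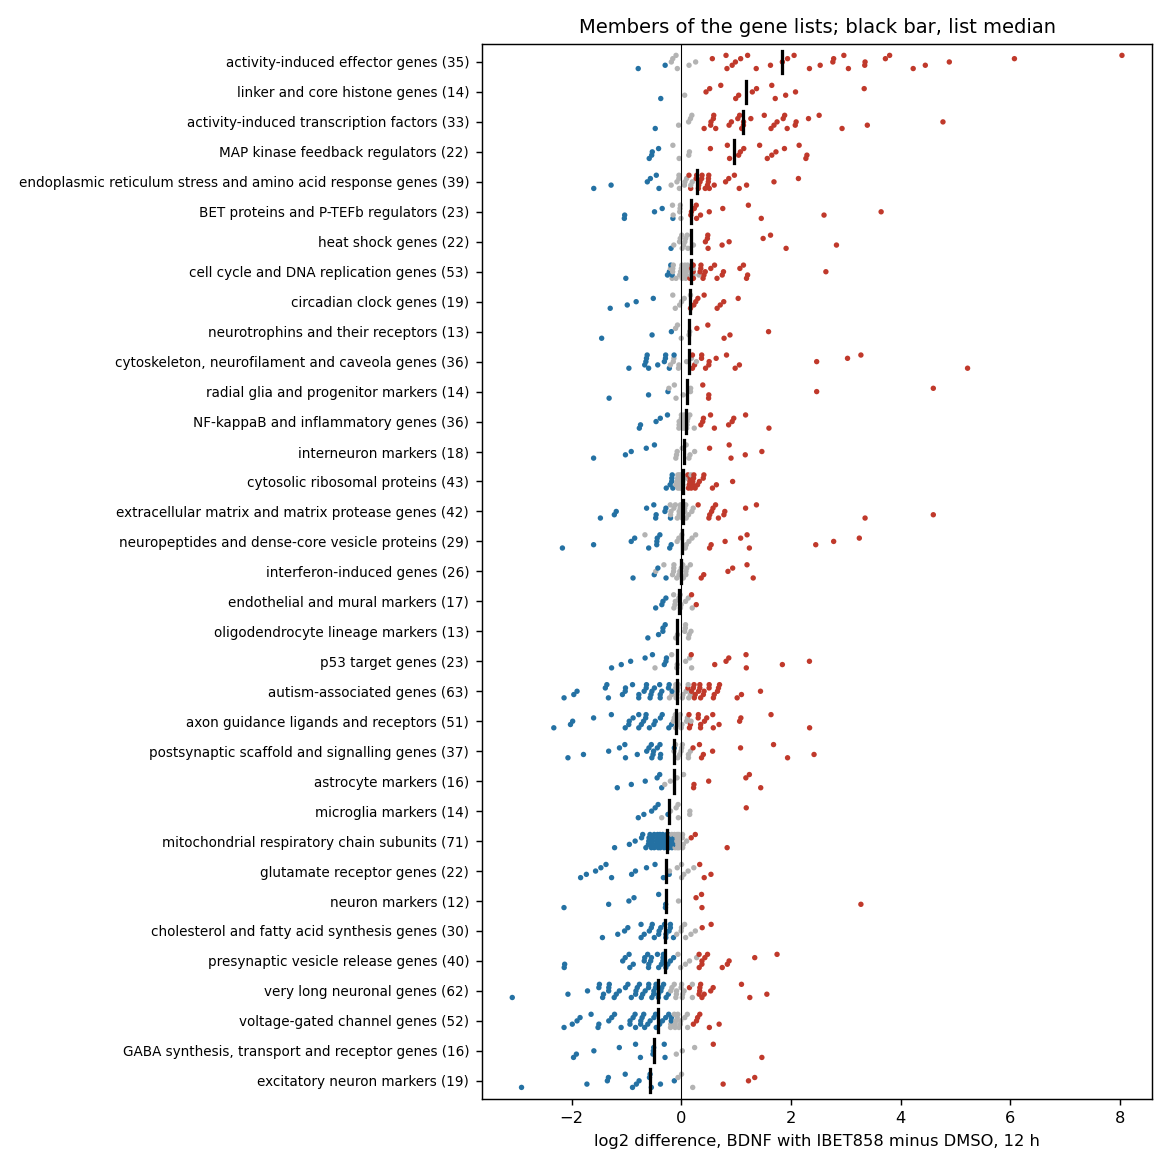
The 35 gene lists ordered by their median, with each measured member plotted at its log2 difference between both agents and DMSO at 12 h and the number measured in parentheses. Red members were called higher, blue lower and grey not called, and black bars are list medians, which run from -0.57 for excitatory neuron markers to 1.84 for activity-induced effector genes.

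Markers of cell types moved as well. In bulk RNA, fewer cells of a type and less RNA per cell cannot be told apart. Of 12 pan-neuronal markers 7 fell and 4 rose, with a median of -0.29. Elavl4, an RNA-binding protein of neurons, fell by 2.14 ± 0.08 and Rbfox3, which encodes the NeuN antigen, by 1.33 ± 0.05, while Nefl rose as above. Excitatory neuron markers fell in 13 of 19 cases and rose in 3, with a median of -0.57 and a mean on the treated arrays between -0.52 and -0.49, against -0.03 to 0.04 on DMSO. Besides Lmo3, the cortical transcription factor gene Neurod6 fell by 1.72 ± 0.14 and Cux2 by 1.35 ± 0.07, the latter with probe sets from -2.45 to -0.01. Slc17a6 rose, as given for the presynaptic genes. Of 18 interneuron markers 5 rose and 5 fell (55.6% called, near the 53% of all genes). Gad2 and the homeobox gene Dlx6 (1.17 ± 0.13) rose, and Nxph1 and the calretinin gene Calb2 (-1.02) fell.

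Glial and vascular markers had members in both directions or fell in some cases, and are given with the share of each list called, against 53% of all genes. Of 16 astrocyte markers 6 rose and 6 fell (75% called), with glutamine synthetase (Glul) higher by 1.45, Sox9 by 1.24 and Ntsr2 by 1.18, and the water channel gene Aqp4 lower (-1.17), with probe sets from -2.21 to -0.01. Gfap, the defining astrocyte filament, was named after its value was seen and was not called, at -0.20 ± 0.17. As a mean over the 16 markers, the list lay between -0.01 and 0.04 on treated arrays and between -0.14 and 0.22 on DMSO, and its median of -0.14 turned to 0.05 without DMSO replicate 1. Radial glia and progenitor markers (57.1% called) had 5 of 14 higher, among them Tnc and Vim, and 3 lower, among them Prom1 (-1.32) and Fabp7 (-0.60). Treated means of the list were 0.44 to 0.45 against -0.08 to 0.15, and these means include Tnc at 4.60. The list median was only 0.10, or 0.03 with the median of probe sets and 0.21 without DMSO replicate 1. Mki67, a marker of dividing cells also named after its value was seen, was not called (-0.10 ± 0.25). Of 14 microglia markers 6 fell and 1 rose (50% called). The leukocyte gene Ptprc fell by 0.79 ± 0.11 and the complement genes C1qc and C1qb by 0.68 ± 0.09 and 0.54 ± 0.07, while the lysosomal gene Cd68 rose by 1.18 ± 0.09. Oligodendrocyte lineage markers fell in 5 of 13 cases (38.5% called, all lower, against 30.3% of all genes lower), led by Mbp (-0.61, or -0.39 with the median of its probe sets, which ran from -1.85 to -0.13) and Cnp (-0.42), and endothelial and mural markers fell in 4 and rose in 2 of 17 (35.3% called, fewer than among all genes), Col3a1 (-0.47) and Pdgfrb (-0.36) being the lowest. The calls of Olig2, Cspg4 and Col1a2 (-0.34, -0.34 and -0.28) each ended when 1 or more single arrays were left out. The part of the marker shifts in the other gene groups was not tested.

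Each agent alone gives the setting for the combined values. BDNF alone at 12 h gave 7463 called genes (41.0%), with 3067 higher (16.9%) and 4396 lower (24.2%), and IBET858 alone 8863 (48.7%), with 4162 higher (22.9%) and 4701 lower (25.8%). These comparisons use the same DMSO arrays as the combined one, so values are set side by side without a measure of agreement. Immediate early factors had a median of 0.79 with BDNF, 0.38 with IBET858 and 1.13 with both, and effector genes 1.23, 0.23 and 1.84. Histone genes had 0.03, 1.30 and 1.17, so the combined median stood near that of IBET858 and far from that of BDNF. Very long neuronal genes had 0.03, -0.60 and -0.42, and voltage-gated channel genes -0.03, -0.40 and -0.43.

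Among single genes, Egr2 rose by 4.77 ± 0.13 with both, by 4.54 ± 0.13 with BDNF alone, and was at 0.17 ± 0.13 with IBET858 alone. Nefm rose by 3.94 ± 0.10 with BDNF and 1.41 ± 0.10 with IBET858, and Vim by 2.34 ± 0.07 with BDNF while it fell by 0.39 ± 0.07 with IBET858. Hexim1 rose by 2.76 ± 0.10 with IBET858 and by 0.26 ± 0.10 with BDNF. Cavin2 rose by 3.52 ± 0.10 with IBET858 and fell by 0.45 ± 0.10 with BDNF. Gria1 was at -0.10 ± 0.06 with BDNF, not called, and fell by 1.36 ± 0.06 with IBET858. Pcdh20 was likewise not called with BDNF (-0.13 ± 0.22) and fell by 1.49 ± 0.22 with IBET858, and its value with both lay -1.65 from IBET858 alone (limma adjusted p 2.9e-06).

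**Figure D4:**
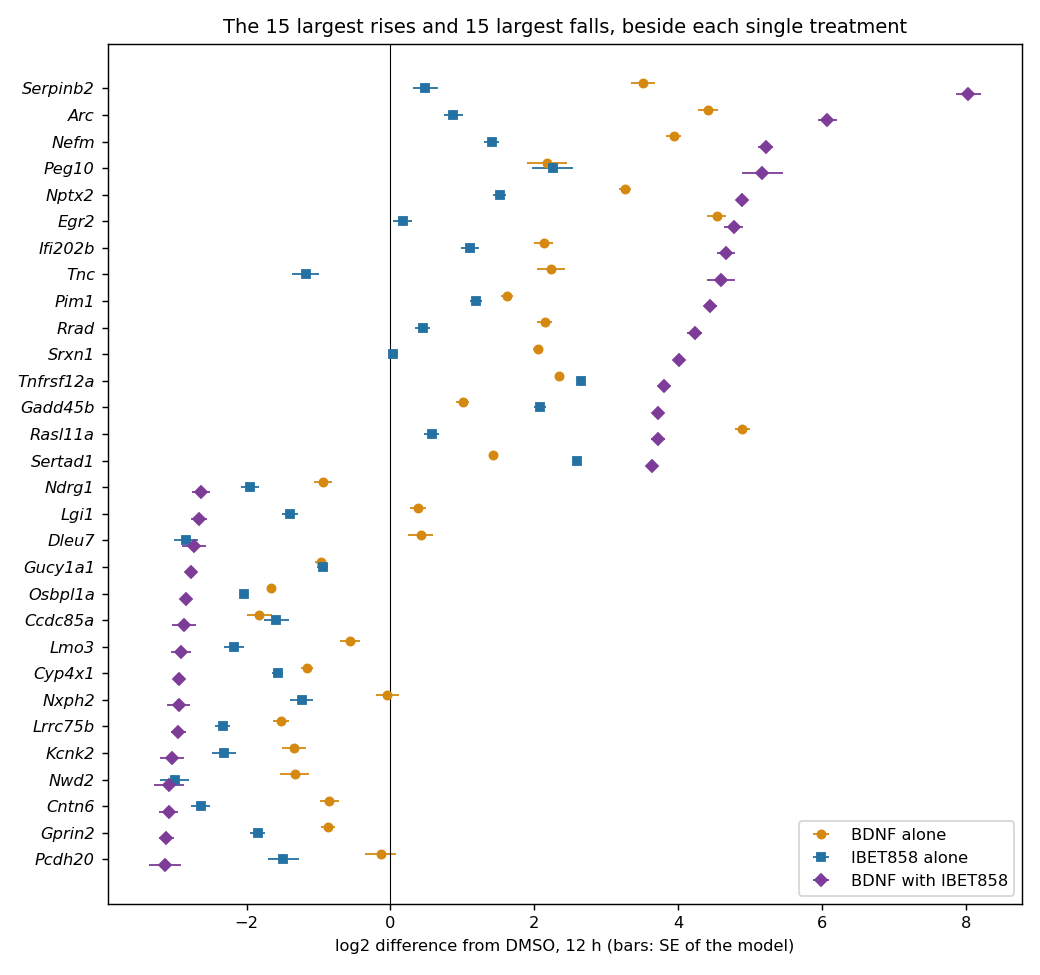
The 15 furthest rises and the 15 furthest falls with both agents at 12 h, with the log2 difference from DMSO for BDNF alone (circles), IBET858 alone (squares) and both (diamonds), and bars for the standard error of the model. Serpinb2 stands at 3.51, 0.48 and 8.04, while for Rasl11a the BDNF value of 4.90 exceeds the combined 3.72.

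Direct tests set the combined arrays against those of each single agent. Against BDNF alone, 8511 genes were called (46.8%), 3848 higher (21.1%) and 4663 lower (25.6%) with both. Against IBET858 alone, 7150 were called (39.3%), 2923 higher (16.1%) and 4227 lower (23.2%). Arc was higher with both than with BDNF by 1.66 ± 0.14 (limma adjusted p 1.1e-09) and higher than with IBET858 by 5.20 ± 0.14. Serpinb2 exceeded BDNF alone by 4.53 ± 0.17. Egr2 differed from BDNF alone by 0.24 ± 0.13 (limma adjusted p 0.15) and was not called. Bdnf itself was lower with both than with BDNF alone, at a difference of -0.71 ± 0.26 (limma adjusted p 0.031). H2bc18 and H3c4 were lower with both than with IBET858 alone, at differences of -0.96 ± 0.23 and -1.17 ± 0.17. Gabra5 differed from IBET858 alone by -0.02 ± 0.11 and was not called.

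The interaction asks whether the combined difference departs from the sum of the single ones on the log2 scale. It was called for 2945 genes (16.2%), above the sum for 1627 (8.94%) and below it for 1318 (7.24%). The count varied with the arrays in the fit. It was 3548 when both arrays that stood apart were left out and 2439 with the 12 h arrays alone. With single arrays left out it lay between 2321 and 3107. Serpinb2 exceeded the sum by 4.04 ± 0.25 (limma adjusted p 3.3e-10), with BDNF arrays at 3.23, 3.67 and 3.64, IBET858 arrays at 0.71, 0.72 and 0.02 and combined arrays at 8.11, 7.93 and 8.08. IBET858 replicate 3 was the low array of its group, and the interaction of Serpinb2 was 3.81 without it. Tnc exceeded it by 3.54 ± 0.27, having risen by 2.23 with BDNF and fallen by 1.18 with IBET858. Ebi3, a cytokine subunit, fell with BDNF (-0.78) and with IBET858 (-1.01) and rose by 1.30 with both, an interaction of 3.09 ± 0.17. Gxylt2, a xylosyltransferase of Notch glycosylation, was not called with either agent (0.26 and 0.08) and rose by 3.06 with both, an interaction of 2.73 ± 0.18. Slc17a6 rose by 1.20 with BDNF, fell by 2.05 with IBET858 and rose by 1.34 with both, so that its interaction was 2.19 ± 0.11.

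The 5 genes furthest below the sum were raised far by BDNF and stood within 1 log2 unit of DMSO with both. Chrna1, a nicotinic receptor subunit of muscle type, read 3.83, 3.79 and 3.75 with BDNF, -0.08, -0.25 and -0.01 with IBET858 and 0.84, 0.64 and 0.20 with both, and its interaction was -3.12 ± 0.19. Every combined array lay far below every BDNF array. Cyp26b1, which degrades retinoic acid, had 2.89 with BDNF and 0.62 with both, an interaction of -3.11 ± 0.20. Mt2, a metallothionein, had 2.44 and 0.62, an interaction of -2.39 ± 0.13. Cthrc1, a secreted collagen triple helix repeat protein, rose by 3.27 with BDNF and was not called with both (-0.33), an interaction of -2.90 ± 0.28. Gask1b, a Golgi protein, rose by 3.03 with BDNF and fell by 0.92 with both, an interaction of -2.57 ± 0.19.

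Time changed the combined response for many genes. At 2 h, both agents against DMSO gave 7597 called genes (41.8%), 3379 higher (18.6%) and 4218 lower (23.2%). The difference between the 12 h and 2 h effects was called for 8452 genes (46.5%), with 3988 higher at 12 h (21.9%), 4464 lower (24.5%) and a median of -0.09 over all genes. Without both arrays that stood apart, 9345 were called, and with single arrays left out between 7893 and 8769. Immediate early factors had a median of 1.41 at 2 h and 1.13 at 12 h, and effector genes 1.68 and 1.84. Arc was already up by 5.76 ± 0.14 at 2 h and its difference in time was 0.32 ± 0.19 (limma adjusted p 0.19), whereas Btg2 went from 4.44 at 2 h to 1.84 at 12 h, a difference of -2.60 ± 0.20. Several lists with a median below 0 at 12 h were nearer DMSO at 2 h, with medians of 0.13 for glutamate receptors, 0.14 for GABA genes, -0.01 for voltage-gated channels, 0.08 for very long genes and 0.03 for respiratory chain subunits. Excitatory neuron markers were at -0.19 at 2 h, with 6 of 19 lower and 1 higher, and cholesterol and fatty acid genes at -0.11, with 8 of 30 lower and 6 higher. In the direct test of the difference, 12 of 22 glutamate receptor genes, 26 of 52 channel genes and 43 of 71 respiratory chain genes were lower at 12 h than at 2 h, against 24.5% of all genes.

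Single genes separated the times by up to 4.37 log2 units. Ifi202b was at 0.30 ± 0.13 at 2 h, not called, and at 4.67 ± 0.13 at 12 h, a difference of 4.37 ± 0.18 (limma adjusted p 2e-13). Tnc, Gxylt2, Dgkk, a diacylglycerol kinase, and Cavin2 also gained, by 3.61 ± 0.27, 3.17 ± 0.18, 3.12 ± 0.13 and 3.11 ± 0.15. Pecam1, an adhesion molecule of endothelium and blood cells, went the other way. It was up by 3.60 ± 0.12 at 2 h, and at 12 h its arrays read 0.09, 0.14 and 0.15 against 0.11, -0.03 and -0.08 on DMSO, overlapping, with a difference in time of -3.48 ± 0.17. The other 16 endothelial and mural markers were at 0.49 or less at 2 h, and the list had a median of 0.14. Ckmt2, a mitochondrial creatine kinase, went from 3.17 at 2 h to 0.17 at 12 h, a difference of -3.0 ± 0.17. Cntn6 stood at -0.01 at 2 h and -3.08 at 12 h. The time differences of Rgs13, a regulator of G protein signalling, and Cadps2 were -3.38 ± 0.67 and -3.13 ± 0.66, with the widest errors of the 10 genes named for time.

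**Figure D5:**
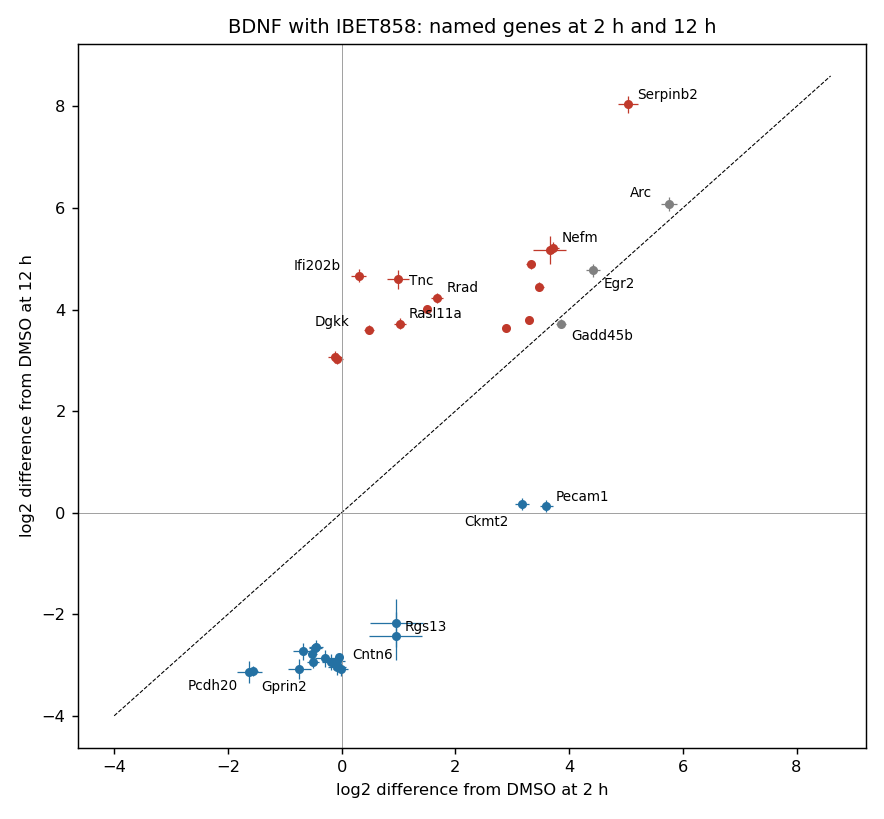
Log2 difference from DMSO with both agents at 2 h (horizontal) and 12 h (vertical) for the 15 furthest rises, the 15 furthest falls and the genes named for their change with time; bars are standard errors of the model and the dashed line marks equal effects. Red genes were called higher at 12 h than at 2 h, blue lower and grey not called, with Pecam1 at 3.60 and 0.13 and Ifi202b at 0.30 and 4.67.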

How the data were processed

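RNA in 8 groups of 3 was measured on 24 Affymetrix mouse arrays. The authors deposited log2 values made with RMA, per the submitters' processing notes, which sets all arrays to 1 distribution and would hide a change in total mRNA. All 45101 probe sets had a median of 0 over the 24 arrays, so each value is relative to its probe set. Versions and genome builds are not given in the sources used here.

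The 34958 probe sets naming 1 gene were averaged per gene, giving 18194 genes, 9012 of them from several probe sets, and symbols were updated through RefSeq GRCm38.p6 for 34754 probe sets. Probe sets naming several genes (932) or none were left out. A model with 8 group means was fitted in limma 3.58.1 (R 4.3.3) with eBayes moderation, two-sided tests and Benjamini-Hochberg adjustment over all genes, and calls were made at an adjusted p under 0.05. The scripts were tested on simulated data.

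The groups and the 35 gene lists were chosen with earlier results of these data known. Lists were described by counts and medians, without a set test. Named genes were the 15 highest and 15 lowest called with non-overlapping arrays, leaving out predicted genes, up to 4 called members of each list with the largest change, a fixed set around Bdnf and BET proteins, and the 5 highest and 5 lowest of the interaction and of the time difference. Alternatives covered probe set summary, array scaling, weights, variance prior, arrays in the fit, each array left out and the replicate number. The number of arrays limits the precision.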

Additional observations from a re-analysis of the deposited data

Results flagged for a closer look

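The effect of both agents differed between 12 h and 2 h for 8452 genes by the test of that difference. The highest differences were 4.372 for Ifi202b, 3.609 for Tnc, 3.174 for Gxylt2, 3.124 for Dgkk and 3.106 for Cavin2. The lowest were -3.476 for Pecam1, -3.381 for Rgs13, -3.133 for Cadps2, -3.073 for Cntn6 and -3.003 for Ckmt2, all in log2 units.

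The effect of BDNF at 12 h differed with and without IBET858 for 2945 genes by the interaction test. Its highest values were 4.043 for Serpinb2, 3.542 for Tnc, 3.092 for Ebi3, 2.728 for Gxylt2 and 2.189 for Slc17a6. Its lowest were -3.115 for Chrna1, -3.111 for Cyp26b1, -2.899 for Cthrc1, -2.566 for Gask1b and -2.387 for Mt2.

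Outside the genes, the poly-A spike probe sets were higher with both agents than with DMSO at 12 h by a median of 0.7053 log2 units, and the hybridisation controls by 0.22. Of 9160 probe sets with no listed gene, 2571 were called in the same comparison (28.1%, against 53% of all genes). They were fitted apart from the genes, as single probe sets with their own adjustment, so the shares are not from the same test.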

How the results depend on the processing

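All 348 recomputed counts over the comparisons stayed within 1.5 times the reported ones. Each refit gave 3 of these counts: all genes called, those higher and those lower. For both agents against DMSO at 12 h, higher genes numbered between 3833 and 4454 and lower genes between 5167 and 5869, and with single arrays left out between 3833 and 3965 and between 5167 and 5301. With the replicate number as a block (replicate block), 9518 genes were called. In their deviations from the group mean, same-numbered arrays of these groups correlated at 0.004 to 0.054, and differently numbered ones at -0.078 to 0.060. With 3 arrays per group these values cannot settle whether the numbers pair the arrays. The fit on 12 h arrays alone was not run for the time difference, which needs both times. No called value of a named gene turned its direction, while Bdnf, not called, went from 0.14 to -0.05 without DMSO replicate 1. Olig2, Cspg4, Col1a2, Ntrk2 and Brd3 lost their calls in 11 cases, each being 1 gene in 1 setting. Cthrc1 gained a call without replicate 1 of both agents (-0.547, limma adjusted p 0.0267). The causes were not tested. List medians close to 0 changed sign with the setting, for example the p53 targets, at 0.01 with the median of probe sets. The median of BET and P-TEFb genes was 0.05 with each probe set alone. The 2 arrays left out as standing apart were chosen after seeing the data.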

Other observations

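Cell cycle and DNA replication genes rose in 22 of 53 cases and fell in 5 with both agents at 12 h, with a median of 0.17 against -0.01 over all genes (50.9% called). Their median was 0.11 with the median of probe sets, and also with each probe set tested alone. Cdkn1c, an inhibitor of cyclin-dependent kinases, read 2.56, 2.69 and 2.66 against -0.23, 0.07 and 0.16 on DMSO and rose by 2.64 ± 0.21. All its treated arrays exceeded all controls. E2f7, a repressor of the cycle, Cdt1, which licenses replication origins, and Ccne2, a cyclin of the G1 to S transition, rose by 1.21 ± 0.14, 1.19 ± 0.07 and 1.13 ± 0.14. The list median was -0.11 with BDNF alone, 0.20 with IBET858 alone and -0.03 with both agents at 2 h.

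Circadian clock genes rose in 9 of 19 cases and fell in 4. The output factor gene Dbp fell by 1.30 ± 0.11, the Clock relative Npas2 by 0.99 ± 0.17 and Nr1d2, a nuclear receptor of the clock, by 0.82 ± 0.09, with probe sets from -1.72 to 0.07. Cry1, a repressor of the clock, rose by 1.04 ± 0.09. Interferon-induced genes were mostly not called, with 6 of 26 higher and 4 lower (38.5% called, against 53% of all genes). B2m and H2-K1, both parts of class I antigen presentation, rose by 1.31 ± 0.10 and 1.20 ± 0.09, as did the transcription factor gene Irf9 (0.94 ± 0.09), while Ifit2 fell by 0.88 ± 0.15. Cytosolic ribosomal protein genes rose in 18 of 43 cases and fell in 6, with a median of 0.03. Rpl12 rose by 0.94 ± 0.10, Rpl41 by 0.64 ± 0.05, Rps6 by 0.57 ± 0.09 and Rps10 by 0.41 ± 0.04, or 0.25 with each probe set tested alone.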
